A study of Mus musculus with 24 samples.

Results

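Serum response factor (Srf) was deleted in mouse embryos with a Cre recombinase expressed under T, and the comparison described here is that of knockout and control caudal ends at embryonic day 8.5 (E8.5). It rests on the 8 arrays of that stage, 4 per genotype, of the 24 Illumina bead arrays in the series, and takes in all 13268 probes that were detected on at least 4 of the 8 arrays. The knockout samples carry the genotype label Srf(-/-) and are titled SRFcko. The controls are titled wt but carry the genotype label Srf(+/-), so that they may have 1 functional Srf allele. Embryos of both kinds are littermates of the label strain C57Bl/6, from matings between parents that were SRF(flex1/+) and homozygous for T:cre, so that controls carry the Cre as well. The other samples of the series are the same 2 genotypes at E8.75 and E9.0, 4 arrays each. Whether a replicate is an embryo, a pool or a litter is left unsaid in the labels. The p-values therefore cover only the scatter among these arrays. Part of that scatter may be technical, though Xist and Kdm5d differed between control arrays, as described below.

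SRF is a MADS-box transcription factor that binds the CArG box. It works with cofactors of the myocardin family, which respond to the pool of monomeric actin and drive genes of the contractile and cytoskeletal apparatus, and with ternary complex factors, which respond to growth factor signalling and drive immediate early genes. The caudal end of the embryo at this age holds the primitive streak and the unsegmented mesoderm from which somites form. T, the gene whose regulatory sequence drives the Cre, is expressed in the streak and the mesoderm that leaves it, so that other cells of the dissected piece are not expected to lose Srf. In RNA of a whole tissue piece, fewer cells of a type and less RNA per cell cannot be told apart.

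Promoters with a CArG box, the sequence that SRF binds, are shown for some of the genes described below. The window searched ran from 250 bases before to 50 bases after each RefSeq gene start (GRCm38.p6), for the CArG box in its strict form, on both strands, which read the same form; matches may overlap. The 250 bases before the start are printed 5′ to 3′ on the gene's strand, with CArG boxes in capitals, for the genes of the 15 lowest without overlap between groups that hold one, and for Vcl.
Srf (chr17:46556163-46556412, - strand): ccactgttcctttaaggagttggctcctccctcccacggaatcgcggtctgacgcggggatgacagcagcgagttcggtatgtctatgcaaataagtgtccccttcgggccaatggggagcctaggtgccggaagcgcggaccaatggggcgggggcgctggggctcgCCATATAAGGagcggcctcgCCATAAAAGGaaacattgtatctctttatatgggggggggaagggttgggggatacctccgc
Cnn2 (chr10:79988350-79988599, + strand): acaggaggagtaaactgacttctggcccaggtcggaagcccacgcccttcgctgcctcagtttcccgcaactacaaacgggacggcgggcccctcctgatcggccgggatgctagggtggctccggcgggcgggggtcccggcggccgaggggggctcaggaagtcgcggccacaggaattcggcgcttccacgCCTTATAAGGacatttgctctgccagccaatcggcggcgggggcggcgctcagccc
Fhl2, upstream start (chr1:43196762-43197011, - strand): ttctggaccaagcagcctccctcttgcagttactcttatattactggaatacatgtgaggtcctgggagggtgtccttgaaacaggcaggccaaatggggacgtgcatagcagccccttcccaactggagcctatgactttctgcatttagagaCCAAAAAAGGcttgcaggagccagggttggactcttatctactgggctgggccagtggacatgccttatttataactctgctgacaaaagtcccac
Fhl2, downstream start (chr1:43163962-43164211, - strand): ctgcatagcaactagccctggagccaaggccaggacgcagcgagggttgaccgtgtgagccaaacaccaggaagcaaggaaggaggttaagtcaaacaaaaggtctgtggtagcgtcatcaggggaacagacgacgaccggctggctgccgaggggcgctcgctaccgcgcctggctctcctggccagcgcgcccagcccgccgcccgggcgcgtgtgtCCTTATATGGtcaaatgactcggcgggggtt
Vcl (chr14:20929148-20929397, + strand): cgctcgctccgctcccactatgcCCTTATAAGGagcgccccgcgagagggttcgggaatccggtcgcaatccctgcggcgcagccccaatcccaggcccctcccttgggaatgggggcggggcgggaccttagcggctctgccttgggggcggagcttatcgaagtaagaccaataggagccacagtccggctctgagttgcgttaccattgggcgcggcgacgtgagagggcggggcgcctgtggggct
Srf itself has a pair of boxes, which begin 82 and 62 bases before its start. The box of Cnn2 begins 56 bases before its start and that of Vcl 227 bases before, while the 2 starts of Fhl2 have theirs 96 and 31 bases before. Of the actin cytoskeleton list described below, 27 of the 30 tested genes had a promoter in the table, and 7 of these (25.9%) held a box, against 127 of 7401 genes tested at E8.5 (1.72%) and 535 of all 32851 promoters (1.63%). The median log2 fold change was -0.13 over the 7 genes with a box and -0.16 over the 20 without. The list holds genes already known as SRF targets, so that its share of boxes is not independent of how it was chosen. A match is a description of these windows, not a site of binding.

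The dissection carried the markers of its label. Tbx6, Cdx2, Wnt3a and Fgf8, genes of the tail bud and caudal mesoderm, were detected on all 8 arrays, Cdx2 with a log2 intensity between 11.80 and 12.04. The forebrain gene Six3, the midbrain gene En2 and the neural genes Sox1 and Pax6 were detected on 0 of 8, and Otx2 on 1. Other markers of the same sets were present. The neural gene Sox2 was detected on all 8 arrays (5.03 to 5.71). So was Hoxb1 (8.63 to 9.26), which the marker list had placed among genes of anterior tissue. Between 12316 and 13685 probes were detected per array. Knockout replicate 4 stood apart from the others. Its score on the first principal component, which held 35.7% of the variance, was 36.5, while the other 7 arrays lay between -13.1 and 6.08. It had the fewest detected probes and the lowest mean correlation with the other arrays (0.980). Its levels of the tail bud list were the highest and those of posterior Hox genes and globins the lowest of the 8 arrays, as described below. Values without it are given for Srf, for the genes whose 8 arrays are listed and for most gene lists whose medians are given. Xist exceeded the Y-linked gene Kdm5d on control replicates 2 and 4 and on knockout replicate 4. Thus 2 control arrays and 1 knockout array differ from the rest in this pair of genes. The Y-linked gene Uty was likewise low on control replicates 2 and 4 (4.47 and 4.61). On knockout replicate 4, however, Uty read 5.04, near the 5.07 to 5.20 of the remaining arrays. A further Y-linked gene, Eif2s3y, was detected on 0 arrays.

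Srf had the lowest difference among genes whose groups did not overlap and was the 1 probe called at an adjusted p under 0.05. The control arrays read 8.33, 8.58, 8.58 and 8.45 in log2 intensity for Srf, and the knockout arrays 7.67, 7.38, 7.21 and 7.52. All knockout arrays lay below all controls, and signal was detected on each of them. The mean was 8.49 ± 0.12 (SD, n = 4) in controls and 7.45 ± 0.20 (SD, n = 4) in knockouts. Srf thus fell by 1.04 on the log2 scale (SE 0.12, 95% interval -1.30 to -0.78, limma adjusted p = 0.0343). A dimmer second Srf probe fell short of the call at -0.38 (SE 0.12, unadjusted p = 0.0112). The labels do not place the probes relative to the deleted part of Srf, so the size of the difference does not measure how complete the deletion was. Without knockout replicate 4 the difference was -1.07 with an adjusted p of 0.0834. Leaving out any of the 8 arrays but knockout replicate 1 took the call away, with adjusted p-values from 0.0834 to 0.248 and differences from -0.97 to -1.10.

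The other probes gave no call. Of the 13268 probes, 1 was called (0.00754%), 0 of them higher in knockouts, and 378 had an unadjusted p under 0.05 (2.85%). With 1 probe per gene, the brightest, 9112 genes were tested, of which 123 (1.35%) were lower and 109 (1.2%) higher at an unadjusted p under 0.05. Groups without overlap were seen for 287 probes (2.16%), and with 1 probe per gene for 98 genes on the lower side (1.08%) and 83 on the higher side (0.911%). The median log2 fold change of all genes was -0.0016. In 34 genes the difference exceeded 0.5 in either direction and in 7 it exceeded 1, embryonic globins that varied between arrays among them, while the median SD within groups was 0.17. Genes described from here on did not pass the adjusted threshold, and their values are descriptions with unadjusted p-values.

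**Figure D1:**
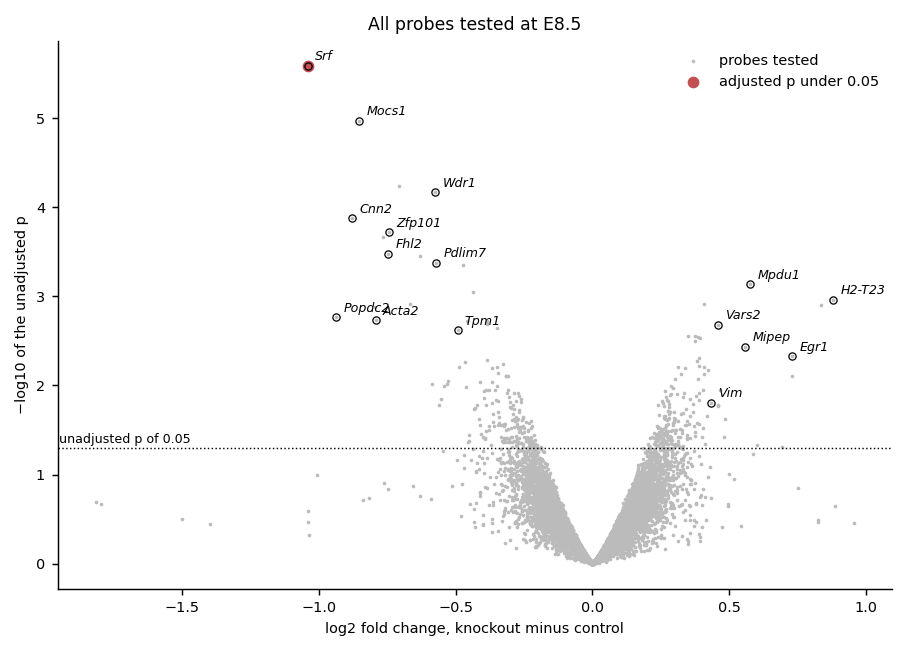
Log2 fold change (knockout minus control, x axis) against −log10 of the unadjusted p (y axis) for the 13268 probes tested at E8.5, with selected genes circled and named. Srf, at -1.04, is the 1 probe with an adjusted p under 0.05, and the named genes nearest to it, Mocs1, Wdr1 and Cnn2, also lie on the lower side.

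Genes of the actin cytoskeleton known as SRF targets lay mostly below the controls in the knockouts, Cnn2, Acta2 and Fhl2 by the most. Of 42 list members 30 were tested, and 27 of them had a negative difference against 3 positive, where 50.5% of all genes were negative. An unadjusted p under 0.05 was reached by 9 members, all lower in knockouts, beside 1.35% of all genes. In 6 of them no knockout array reached the lowest control array, beside 1.08% of all genes. The list median was -0.14, against -0.0016 over all genes. The members were chosen with earlier results of these data known, so that these counts are descriptions and not a test. The mean level of the 30 genes lay between 8.89 and 9.001 on the control arrays and between 8.71 and 8.74 on the knockout arrays, with knockout replicate 4 at 8.72. Without that replicate 24 of 30 members were negative, 9 were lower at an unadjusted p under 0.05, and the median was -0.17.

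Cnn2 encodes calponin 2, a protein that binds actin filaments and restrains myosin. Its log2 intensity was 5.77, 5.99, 6.01 and 6.02 on the control arrays and 4.81, 5.31, 4.76 and 5.396 on the knockout arrays. The groups did not overlap, and the difference was -0.88 (SE 0.15, unadjusted p = 0.000134, adjusted p = 0.355), or -1.01 without knockout replicate 4. A dimmer Cnn2 probe gave -0.24.

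Acta2, the smooth muscle actin that is also made by early mesoderm and heart, read 9.80, 9.84, 10.18 and 10.34 in controls and 9.11, 9.46, 9.65 and 8.748 in knockouts. The lowest array was knockout replicate 4, and the difference was -0.79 (SE 0.19, unadjusted p = 0.00187), or -0.63 without that replicate. The other 3 Acta2 probes gave -0.79, -0.59 and -0.53, and the groups did not overlap for 2 of these.

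Fhl2, a LIM-domain protein that binds SRF and actin-linked adhesion proteins, read 6.24, 6.34, 6.19 and 6.31 in controls and 5.81, 5.204, 5.29 and 5.78 in knockouts. The controls lay within a narrow range and the knockout arrays formed a higher and a lower pair, all below the controls. The difference was -0.75 (SE 0.15, unadjusted p = 0.000334), or -0.85 without knockout replicate 4.

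Wdr1, a cofactor of cofilin in taking actin filaments apart, showed little scatter in either group. Its values were 10.91, 10.89, 10.95 and 11.05 in controls and 10.50, 10.28, 10.35 and 10.36 in knockouts. The difference of -0.57 (SE 0.09) had an unadjusted p of 6.75e-05 and an adjusted p of 0.224. It was the same, -0.57, without knockout replicate 4, and a dimmer probe gave -0.29.

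Pdlim7, an adaptor of the PDZ and LIM family on actin bundles, read 9.20, 9.45, 9.63 and 9.53 in controls and 9.03, 8.91, 8.85 and 8.74 in knockouts, a difference of -0.57 (SE 0.11). Tpm1, a tropomyosin that coats actin filaments, read 10.78, 10.37, 10.70 and 10.56 in controls and 10.24, 10.29, 10.01 and 9.89 in knockouts, a difference of -0.49 (SE 0.13). In both genes the highest knockout array lay just under the lowest control, and without knockout replicate 4 the differences were -0.53 and -0.42.

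The other 3 members with an unadjusted p under 0.05 overlapped between the groups. They were Vcl, the adhesion protein vinculin (-0.26), Pdlim5 (-0.22) and Actb, cytoplasmic beta actin (-0.32). Dimmer Pdlim5 probes gave 0.05 and -0.04. Actb was read from several probes that did not move alike. Its brightest probe read 13.33, 13.43, 13.42 and 13.48 in controls and 12.72, 13.02, 13.23 and 13.42 in knockouts. Other bright Actb probes gave -0.30 and -0.09. A pair of dim Actb probes gave 0.82 and 0.83, with unadjusted p-values of 0.327 and 0.342, and their values spread widely, up to 9.47 and 9.86 on knockout replicate 4. The difference between bright and dim Actb probes was lowest on that array. On the other knockout arrays the dim probes read 5.22 to 7.10 and 5.40 to 7.27. The controls spanned 4.78 to 7.56 and 5.02 to 7.74, so the positive differences rest on knockout replicate 4. Without that replicate the brightest Actb probe gave -0.43 (unadjusted p = 0.00605). The dim probes therefore give no direction for Actb here. At the latest stage of the series they gave 2.37 and 2.30, while the brightest probe gave -0.58.

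Most of the remaining 21 members had small differences. Tpm3 (-0.32), Dstn (-0.30) and Cfl1 (-0.22), a tropomyosin and 2 actin depolymerising factors, had unadjusted p-values between 0.0702 and 0.0987. Myosin heavy chains Myh9 (-0.01) and Myh10 (-0.07), profilin Pfn1 (-0.0044) and the actinins Actn1 (-0.05) and Actn4 (0.09) lay near zero. Vil1, villin of the brush border, had the widest spread, from 4.88 to 7.32 among knockouts, with its highest value on the array with the highest yolk sac level. Median scaling of the arrays turned the signs of Actn4, Fhl1 and Trip6, the 3 members with a positive difference, and shifted the median of all probes to -0.14, the actin list then having a median of -0.30.

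**Figure D2:**
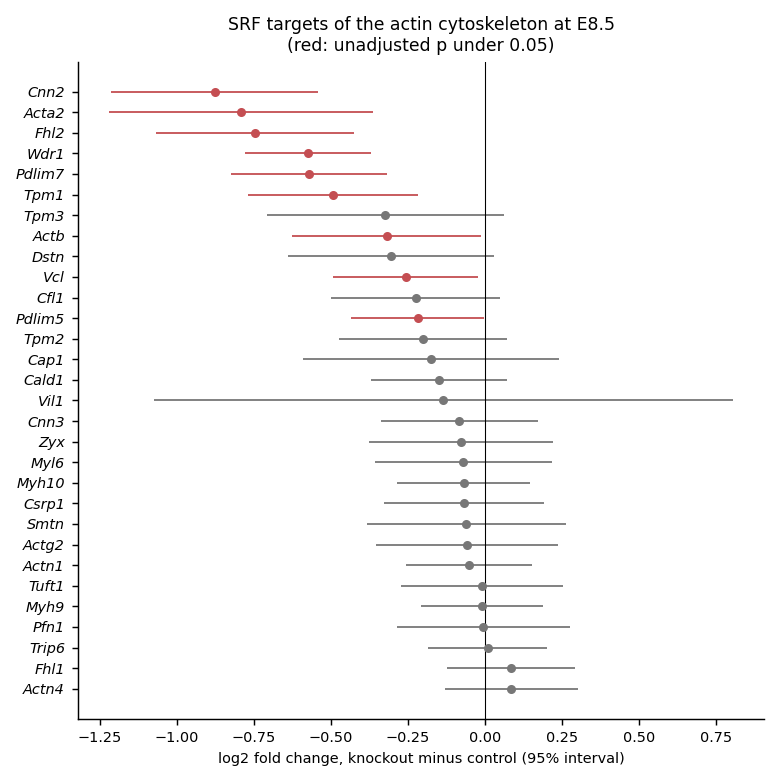
Log2 fold change (knockout minus control) with its 95% interval for the 30 tested genes of the actin cytoskeleton list, sorted by size. The 9 genes in red had an unadjusted p under 0.05 and are all lower in knockouts, from Cnn2 (-0.88) to Pdlim5 (-0.22); the dimmer actin probes are not drawn.

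Outside that list, several of the lowest genes have other roles. Popdc2, a membrane protein of the Popeye family that binds cyclic AMP and is known from heart and muscle, read 6.06, 5.86, 6.49 and 6.57 in controls and 5.41, 5.83, 5.27 and 4.71 in knockouts. Its groups nearly touched, at control replicate 2 and knockout replicate 2. The difference was -0.94 (SE 0.23, unadjusted p = 0.00171), -0.75 without knockout replicate 4, and -0.67 for its second probe.

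Mocs1, which carries out the first step of molybdenum cofactor synthesis, came nearest to a call. It read 9.54, 9.29, 9.68 and 9.64 in controls and 8.72, 8.55, 8.66 and 8.81 in knockouts, with a wide gap between the groups. The difference was -0.85 (SE 0.11, adjusted p = 0.071), or -0.90 without knockout replicate 4 (adjusted p = 0.0988), and the adjusted p was under 0.05 in 5 of 25 alternative analyses. Zfp101, a zinc finger gene, read 7.09, 6.57, 6.52 and 6.83 in controls and 6.10, 6.14, 5.89 and 5.90 in knockouts, a difference of -0.74 (SE 0.14, unadjusted p = 0.000192), or -0.71 without that array.

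The rest of the 15 lowest genes without overlap were Cd248 (-0.53), the mesenchymal surface protein endosialin, Ddr1 (-0.47), a receptor tyrosine kinase for collagen, Pheta2 (-0.47), Ptges3l (-0.46) and Golim4 (-0.44), a Golgi membrane protein. Ptges3l was detected on 1 of the 4 knockout arrays and Pheta2 on 3, so that their levels there are near background. A second, dimmer Ddr1 probe gave 0.02.

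**Figure D3:**
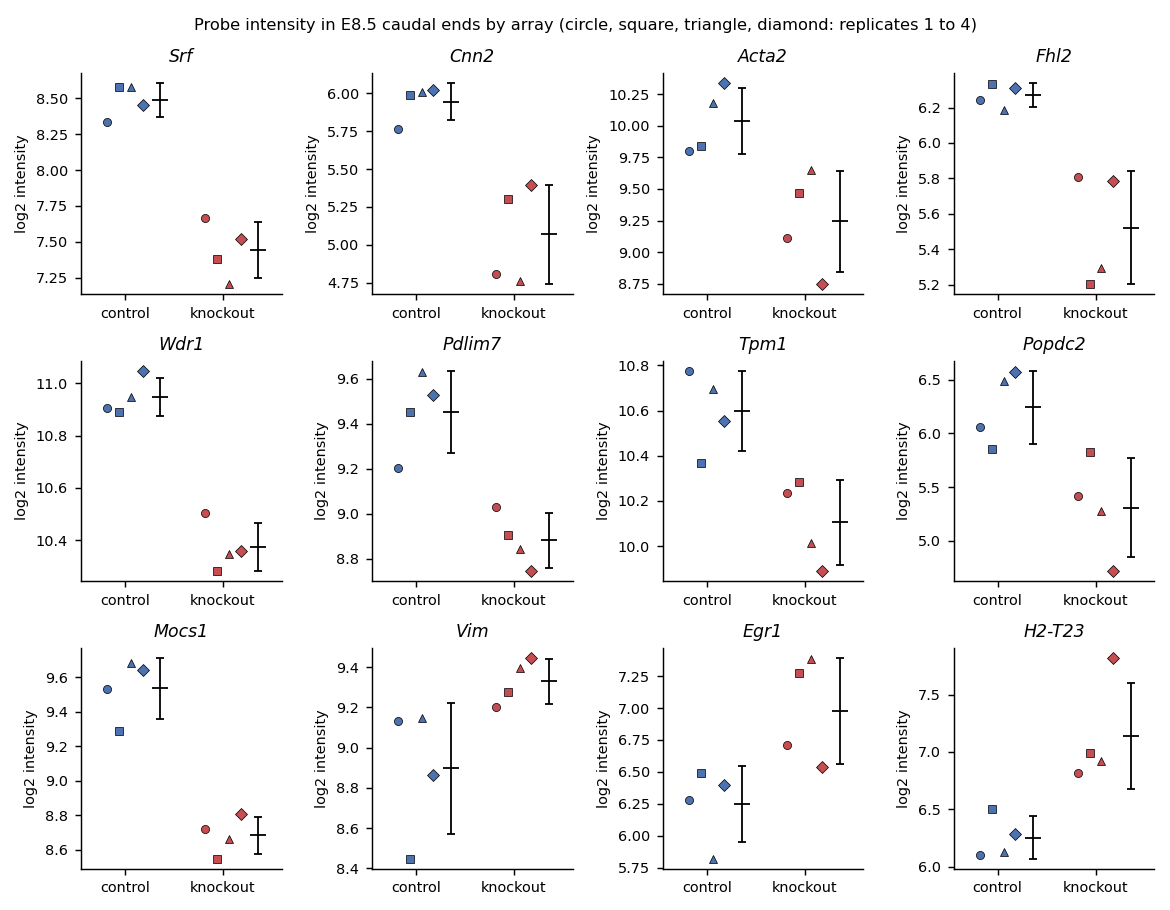
Log2 intensity (y axis) on each E8.5 array for 12 genes, controls in blue and knockouts in red, with the mean and SD of 4 arrays beside each group and a separate scale in each panel. Srf and the next 8 genes lie lower on every knockout array than on any control, while Vim, Egr1 and H2-T23 lie higher.

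Among the 15 highest genes without overlap (0.911% of all genes lay on that side without overlap), the largest differences were in 2 class I histocompatibility genes. H2-T23, which encodes the non-classical antigen Qa-1, read 6.10, 6.503, 6.13 and 6.29 in controls and 6.82, 6.99, 6.92 and 7.82 in knockouts. Knockout replicate 4 was the highest array, and the difference was 0.88 (SE 0.20, unadjusted p = 0.00109), or 0.66 without it. H2-Bl gave 0.84, or 0.65 without that array. Class I genes are near-identical in sequence, so a probe may read more than 1 of them and the assignment is uncertain.

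Egr1, a zinc finger transcription factor of the immediate early response, was higher in knockouts. It read 6.28, 6.49, 5.82 and 6.40 in controls and 6.71, 7.28, 7.38 and 6.54 in knockouts, a difference of 0.73 (SE 0.21, unadjusted p = 0.00467). Its lowest knockout array was replicate 4, and without it the difference was 0.88. Vim, the intermediate filament protein of mesenchymal cells, read 9.13, 8.45, 9.15 and 8.86 in controls and 9.20, 9.28, 9.40 and 9.45 in knockouts. Control replicate 2 was the lowest array by a wide margin, and the difference was 0.43 (SE 0.15, unadjusted p = 0.0157), or 0.39 without knockout replicate 4.

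The other genes of the 15 highest have varied roles. Mpdu1, needed for the use of dolichol-linked mannose, differed by 0.58, with controls between 5.33 and 5.77 and knockouts between 5.96 and 6.37, and by 0.50 without knockout replicate 4. Mipep, a mitochondrial peptidase, differed by 0.56, or 0.46 without it, and Vars2, the mitochondrial valyl-tRNA synthetase, by 0.46. Glo1, which detoxifies methylglyoxal, the autophagy gene Gabarapl1, Ccdc124, the hydrolase Nudt2, the ubiquitin ligase Rnf25, Ifngr2, a subunit of the interferon gamma receptor, Dhrs1 and Myo10, a motor of filopodia, had differences from 0.35 to 0.39. Second probes of Rnf25, Ifngr2 and Myo10 included values below zero.

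Immediate early genes, the other classical SRF targets, did not share a direction. Of 24 members 14 were tested, 7 positive and 7 negative, with a median of -0.02, or 0.04 without knockout replicate 4. Egr1 was higher and Sik1, a stress kinase, lower (-0.30, unadjusted p = 0.0177), the 2 members with an unadjusted p under 0.05, beside 1.2% of genes in the first direction and 1.35% in the second. Ier3 varied most, with 5.56, 6.98, 7.70 and 4.998 in knockouts against 5.39 to 5.76 in controls. Its difference was 0.75 (unadjusted p = 0.14), or 1.20 without knockout replicate 4 (unadjusted p = 0.0109). Fos (0.00), Jun (0.17), Junb (0.19), Dusp1 (-0.06) and the matricellular genes Ccn1 (-0.25) and Ccn2 (-0.04) overlapped between the groups. Fos was detected on 3 control and 2 knockout arrays, and Sik1 on 2 of the 4 knockout arrays, so that these levels are near background. Of SRF cofactors, Myocd (-0.08) and the ternary complex factor Elk3 (-0.04) were tested, both close to background.

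Outside the SRF lists, gene lists of caudal patterning, cell types, metabolism and other processes had few members with a small p. Of the other 29 gene lists, with 419 members tested when summed over lists, 26 had no member with an unadjusted p under 0.05, and the other 3 had 1 each (0.716% of members, where 2.55% of all genes had such a p). The 3 members were Vim, described above, Hoxa5 (-0.34, unadjusted p = 0.0229) and the ribosomal protein gene Rpl23 (0.24, unadjusted p = 0.0216), whose other probes gave 0.11 and -0.04. Without knockout replicate 4 the number of members with such a p was 9 of 419, where 365 of 13268 probes (2.75%) had such a p. The median over the 22 tested genes of tail bud and primitive streak was 0.04, with 15 positive and 7 negative members, but without knockout replicate 4 its sign turned, to -0.08 with 8 positive and 14 negative. It was -0.01 over 18 genes of the presomitic mesoderm and segmentation clock (-0.02 without that array) and -0.17 over 6 genes of the somite (-0.13 without it). Integrin and focal adhesion genes, 16 in all, had a median of -0.08 (-0.0016 without it), and the 16 matrix genes 0.03 (0.07 without it). The 17 epithelial genes had a median of 0.11, with 15 positive and none at an unadjusted p under 0.05 (0.10 and 12 positive without it). The 22 hypoxia and glycolysis genes had a median of 0.01 with 12 positive, which became 0.14 with 18 positive and 2 higher at an unadjusted p under 0.05 without knockout replicate 4. The 14 cholesterol synthesis genes had a median of -0.08, which became 0.04. At E9.0 the medians of these lists were 0.69 and 0.85.

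Blood and yolk sac genes varied widely between arrays of 1 genotype. The mean of the 15 tested erythroid genes was 6.04, 5.43, 8.86 and 6.41 on the control arrays and 5.83, 6.44, 6.51 and 4.85 on the knockout arrays. Control replicate 3 was far above the others and knockout replicate 4 the lowest. All 15 members had a negative difference, with a median of -0.75, and 0 reached an unadjusted p under 0.05. The median was -0.48 without knockout replicate 4 and -0.03 without control replicate 3. At E8.75 the erythroid median was -1.17, with 0 of 14 tested members called. At E9.0 it was -2.51, with all 15 members called lower, where 26.02% of all genes were called in either direction. The embryonic globin Hbb-bh1 read 9.50, 7.77, 13.53 and 10.60 in controls and 8.74, 10.34, 10.43 and 4.63 in knockouts. Without knockout replicate 4 its difference was -0.51. The erythroid factor Gata1 was detected on 0 arrays. The mean of the 23 yolk sac endoderm genes ranged from 6.51 to 8.745, the extremes both being knockout arrays, and the median difference was 0.04 with 16 positive, or 0.19 with 20 positive without knockout replicate 4. With the erythroid mean of each array as a covariate the Srf difference was -1.05, and with the yolk sac mean -1.04.

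The tail bud list had its highest mean, 8.87, on knockout replicate 4, where the other knockouts lay between 8.33 and 8.40 and the controls between 8.24 and 8.70. On the same array the posterior Hox mean was 5.73, against 6.31 to 6.85 on the other 7. Pou5f1, the pluripotency factor that is shut off as the axis extends, read 9.16 there against 4.65 to 6.84 elsewhere, and Fst read 8.93 against 5.41 to 7.22. The part of these differences between arrays in the genotype values was not tested beyond leaving the array out.

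**Figure D4:**
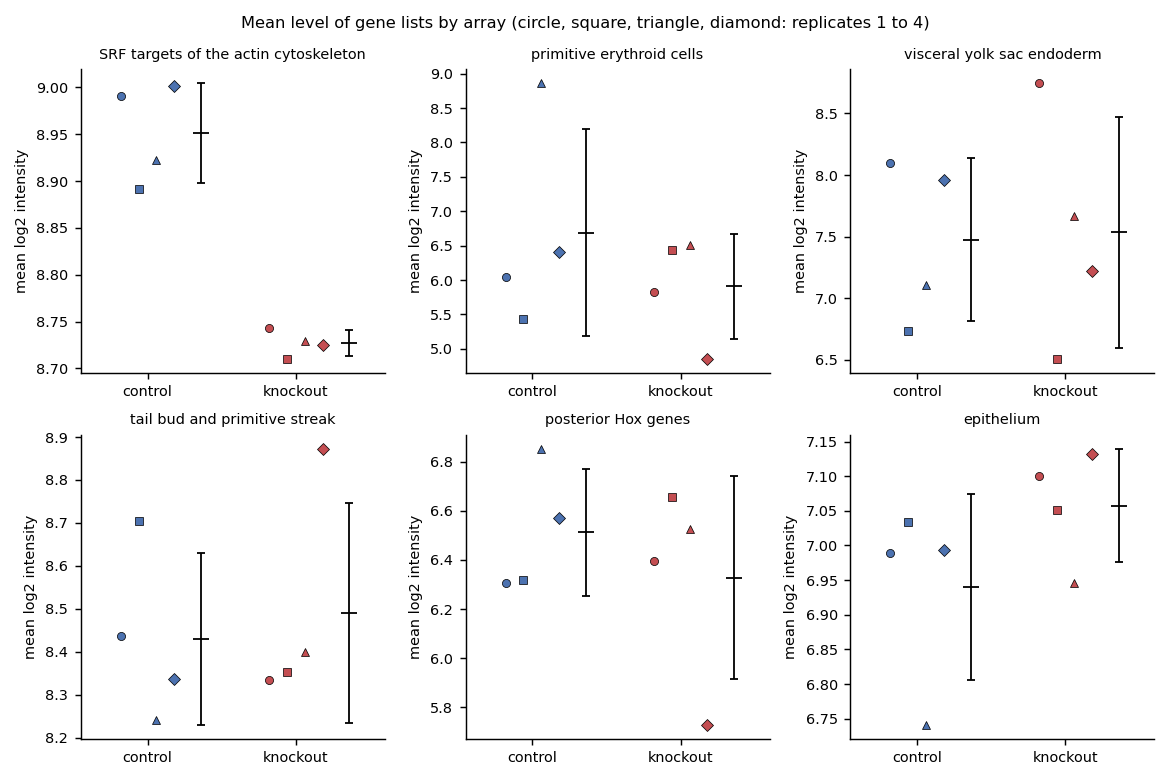
Mean log2 intensity (y axis) of the tested genes of 6 lists on each E8.5 array, controls in blue and knockouts in red, with the mean and SD of 4 arrays and a separate scale in each panel. The groups separate for the actin list, with 8.71 to 8.74 in knockouts and 8.89 to 9.001 in controls. Control replicate 3 (erythroid, 8.86) lies far above all other arrays. Knockout replicate 4 (tail bud, 8.87) lies far above the other knockouts, with control replicate 2 at 8.70.

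The genes ranked at E8.5 were then read in the arrays of the other stages, which share no sample with it. Of the 232 genes with an unadjusted p under 0.05 at E8.5, 228 were tested at E9.0 and 185 of them (81.1%) had the same sign there, where 62.3% of all genes did. In 94 of them the E9.0 difference was called with the same sign and in 2 with the opposite sign, where 26.02% of all genes and 24.1% of all probes were called. At E8.75, 154 of 217 (71.0%) had the same sign, against 57.0% of all genes, where 2 of 11931 probes were called (0.0168%). The yolk sac endoderm list had a median of 1.98 at E8.75 (19 members tested, 0 called), against 0.04 at E8.5 and 0.14 at E9.0. Its part in the E8.75 signs was not tested. Of the 40 genes with an unadjusted p under 0.01, 37 had the same sign at E9.0 and 32 of 39 at E8.75. The share at E9.0 was 71.4% when control replicate 1 was left out of the ranking, its lowest value.

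Several of the lowest genes were called at E9.0. The differences there were -0.74 for Srf (adjusted p = 0.000699), -1.02 for Cnn2, -1.26 for Fhl2, -1.21 for Wdr1, -1.17 for Tpm1, -0.46 for Pdlim7, -0.66 for Popdc2 and -1.43 for Mocs1. Of the 15 lowest genes 11 were called lower at E9.0; Acta2 (-0.42, adjusted p = 0.337), Cd248 (-0.24), Golim4 (-0.10) and Ddr1 (-0.02) were not. Of the 9 actin list members with an unadjusted p under 0.05 at E8.5, 7 were called lower at E9.0, and so were 6 of the 20 members with a larger p at E8.5, where 26.02% of all genes were called in either direction. Of the 15 highest genes 6 were called higher at E9.0, 6 were positive without a call and 3, Ccdc124 (-0.30), Myo10 (-0.18) and Rnf25 (-0.11), were negative. Egr1 was called higher at E8.75 (1.51, adjusted p = 0.0294) and E9.0 (1.36), and Mpdu1 and Mipep at E9.0 (0.69 and 0.49). H2-T23 (0.51, adjusted p = 0.0643), H2-Bl (0.20) and Vim (0.15) were among those without a call.

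**Figure D5:**
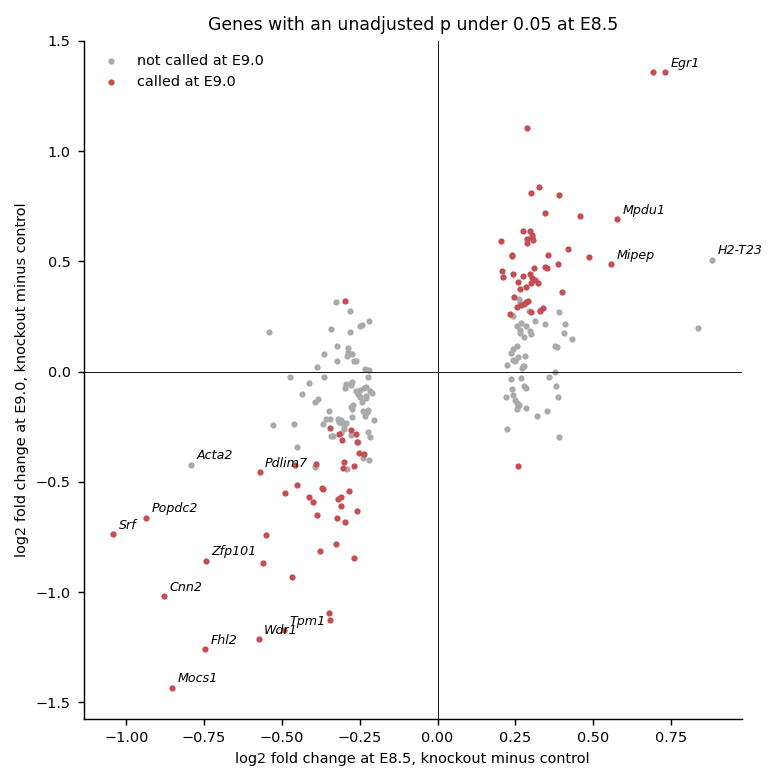
Log2 fold change (knockout minus control) at E8.5 (x axis) against that at E9.0 (y axis) for the 228 genes with an unadjusted p under 0.05 at E8.5 that were tested at both stages, in red where called at E9.0. Most points, 185, have the same sign at both stages, with Mocs1, Fhl2 and Wdr1 among the lowest at E9.0.

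Few effects could be told apart between the stages. The difference between the E9.0 and the E8.5 effect was called for 229 of 14487 probes (1.58%), in 76 of them more negative at E9.0 and in 153 more positive. Wdr1 (-0.67, adjusted p = 0.0106) and Mocs1 (-0.66, adjusted p = 0.0268) were lower by more at E9.0 than at E8.5, and Wdr1 was the 1 actin list member so called. For Srf the difference was 0.26 (adjusted p = 0.425). The 10 genes with the smallest p of this difference were near zero at E8.5, from -0.13 to 0.23, and higher in knockouts at E9.0. They include Pfkp, a phosphofructokinase of glycolysis (0.04 at E8.5 and 2.33 at E9.0), Egln3, a prolyl hydroxylase that acts on the hypoxia-inducible factor (0.02 and 1.16), P4ha2, a collagen prolyl hydroxylase (-0.0039 and 0.89), Scd1, which makes unsaturated fatty acids (0.10 and 1.41), Aacs, which activates acetoacetate (-0.13 and 1.19), Dbp, a transcription factor of circadian output (0.04 and 1.45), the sulphotransferase Chst1 (0.04 and 1.75) and Nrn1, a neurite growth factor (-0.07 and 2.03). Their order between stages rests on the 16 arrays of E8.5 and E9.0, and the count of calls ran from 79 to 452 when single arrays were left out.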

How the data were processed

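Per the labels' protocols, Trizol-extracted RNA of caudal ends was treated with DNase on columns and hybridised as biotinylated cRNA. Per the submitters' processing notes, GenomeStudio was used; the sources used here give no version. The deposited table holds the mean bead intensity of 25697 probes per array on a linear scale, not normalized, and a detection p-value for each, per the file headers. A second deposited table of intensity values, normalized by the authors in a way the labels do not state, served as an alternative. Columns were matched to samples by title, and 0 were left unused.

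The 8 arrays of E8.5 were processed with limma's neqc (limma 3.58.1, R 4.3.3), which corrects the background (offset 16, negative controls inferred from the detection p), takes log2 and normalizes quantiles. A probe was tested if 4 or more arrays had a detection p under 0.05. Group means were compared with limma's moderated test (6 residual and 4.96 prior degrees of freedom), with Benjamini-Hochberg adjustment over all 13268 probes, and the script was tested on simulated data. A gene is represented by its probe with the highest mean. Of the probes, 23978 have 1 symbol in the platform annotation, and 763 of those tested have none. The same settings were used for E8.75 and E9.0, each on its own arrays, and for the difference between stages over 16 arrays. Named genes are Srf, called genes, the 15 lowest and 15 highest without overlap between groups and with an unadjusted p under 0.05, all members of the 3 SRF lists, the 4 members of smallest p in other lists, cell type markers, the 10 genes of largest SD within groups, genes whose probes disagree and the 10 smallest p of the stage difference; genes named outside this rule were chosen after their values were seen. Members and lists were chosen with earlier results of these data known. No replicate block was used, since the deviations of same-numbered arrays correlated at 0.42, -0.05, 0.24 and -0.03. The number of arrays limits the precision. Alternatives changed the background offset, normalization, filter, probe choice, arrays in the fit, weights, variance trend, covariates and arrays left out.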

Additional observations from a re-analysis of the deposited data

Results flagged for a closer look

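Of 206 groups of 4 arrays examined, 14 (6.8%) had 1 array far from the other 3, where chance gives about 1 in 20. Knockout replicate 4 was that array in 6 of them. Its number of detected probes was 12316 (other knockouts 13495 to 13535), its first component 36.5 (-8.37 to -1.29), its tail bud list mean 8.87 (8.33 to 8.40), its H2-T23 level 7.82 (6.82 to 6.99), its Pdlim5 level 5.75 (5.45 to 5.50) and its Actg2 level 4.80 (5.22 to 5.25). Control replicate 1 was low for Cnn2 (5.77, others 5.99 to 6.02), Tpm2 (7.01, others 7.17 to 7.20), Tuft1 (8.57, others 8.81 to 8.84) and Zyx (11.46, others 11.84 to 11.92). Control replicate 3 was high for Pheta2 (5.26, others 4.83 to 4.84) and low for the epithelium list mean (6.74, others 6.99 to 7.03). Control replicate 2 was low for the endothelium list mean (6.33, others 6.65 to 6.68), and knockout replicate 1 for that of presomitic mesoderm and segmentation clock (7.61, others 7.71 to 7.73).

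The knockout effect differed between E9.0 and E8.5 by the interaction test for 229 probes. Among the genes lowest at E8.5 it did so for Mocs1, by -0.66 (adjusted p = 0.0268), and for Wdr1, by -0.67 (adjusted p = 0.0106).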

How the results depend on the processing

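No direction of a called value reversed in the 25 alternatives. The number of calls, 1 in the analysis reported, was 3 with an offset of 50 (Srf, Mocs1, Wdr1), 2 with array weights or an intensity trend (Srf, Mocs1), 6 with the 16 arrays of E8.5 and E9.0 in the fit (Srf, Mocs1, Wdr1, Fhl2, Cnn2 and a probe without a symbol), and 0 with median scaling, no filter, the replicate block, any of 4 covariates, or control replicate 3 and knockout replicate 4 both left out, which was chosen after seeing the data. With all 24 arrays in the fit Mocs1 was called in place of Srf. With single arrays left out the number was 0 to 1. The Srf difference missed the call at -1.25 with median scaling, where the median of all probes was -0.14. It missed it at -1.04 without a filter (adjusted p = 0.148), at -1.09 with 24 arrays, and at -1.04 with the replicate block (adjusted p = 0.244). Whether the replicate numbers pair the samples is left unsaid in the labels. The Srf difference also missed the call at -1.02 with Xist minus Kdm5d as covariate and at -1.05 with the erythroid mean. It was -1.04 with the yolk sac mean, -1.04 with the Actb probe difference and -1.03 with 2 arrays left out, again without a call. Leaving out single arrays gave -1.12 to -0.97. The actin list median was -0.0778 with an offset of 50, -0.0795 in the deposited value table and -0.30 with median scaling, and -0.18 to -0.12 with single arrays left out. The stage difference was called for 87 probes with 24 arrays in the fit, for 138 with the replicate block, and for 79 to 452 without single arrays, the highest number without control E8.5 replicate 1 and the lowest without control E8.5 replicate 2. The share of same sign at E9.0 ran from 71.4% to 83.8% with single arrays left out. The cause of these shifts was not tested. The number of arrays per group limits what differences could be called.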

Other observations

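Chromosome 17, which carries Srf, held 444 of the 9109 tested genes with a known chromosome (4.87%), and 4 of the 10 genes of smallest p at E8.5, 8 of the first 20 and 11 of the first 50. It was chosen after these values were seen, and no test was made. Its 14 genes without overlap between groups and with an unadjusted p under 0.05 made up 3.15% of its tested genes, 6 lower and 8 higher in knockouts, where the other autosomes had between 0.312% and 2.63%. In the order of measured genes along the chromosome, Mocs1 lay 29 places after Srf, Polh, a translesion polymerase (-0.39), 9 places before, Ptk7, a receptor of planar polarity signalling (0.20), 1 place after, H2-T23 and H2-Bl 41 and 40 places before, Ddr1 50 and Vars2 52 places before, and Zfp101, Sik1 and Glo1 117, 131 and 137 places before. The genotype groups differ in their Srf alleles, so that an effect of Srf and one of sequence linked to it cannot be told apart here. What the chromosome's share reflects was not tested.

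Col18a1, a basement membrane collagen, was the 1 gene whose probes passed an unadjusted p of 0.05 in opposite directions, at 0.47 and -0.27, while its brightest probe gave 0.03. Of the 2412 genes with several tested probes, 1279 had all probes of 1 sign.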
